A study of Mus musculus with 2 samples.

Results

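The genes described here encode the cyclin-dependent kinase inhibitors of the mouse. Members were 8 genes, namely Cdkn1a, Cdkn1b and Cdkn1c of the Cip/Kip family, Cdkn2a, Cdkn2b, Cdkn2c and Cdkn2d of the INK4 family, and Cdkn3. Every probe set whose platform annotation names only a member was taken, which gave 10 probe sets for the 8 genes, of 18193 genes that have a probe set of their own on the array. Cdkn1a and Cdkn1b had 2 probe sets each and the other 6 genes had 1.

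The data came from purified CD8+ T cells of pmel-1 mice, in which a transgenic T cell receptor recognises a melanocyte antigen. One group was naive cells, and the other was proliferating cells taken 72 h after activation. Both groups carry the transgene, and the sources used here do not give the activating agent, the source organ or the age of the mice. RNA pooled from 4 independent experiments was hybridised to 1 Affymetrix mouse array per group, so the groups had no replicates, no test was possible, and no difference below has an error of its own.

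Cyclin-dependent kinases drive the cell cycle once a cyclin has bound them. The Cip/Kip proteins bind complexes of cyclin and kinase, and p27 in particular holds resting T cells out of the cycle until mitogenic signals remove it. The INK4 proteins bind CDK4 and CDK6 and keep D-type cyclins away from them. Cdkn3 is of another kind: its product is a phosphatase that takes the activating phosphate off a kinase, and its transcript is known to peak in dividing cells.

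Values are the intensities that the authors deposited, on a linear scale. Intensities under 100 were raised to 100 before a ratio was formed, so that a fold with 1 array under 100 is a lower bound, and no ratio was formed where both arrays lay under 100. A gene was called higher or lower in activated cells when its ratio reached 1.4 and its intensities differed by more than 100. Where a gene had several probe sets, the brightest on average stood for it. Outside the inhibitors, log2 ratios quoted for a gene's further probe sets used the same floor, and bounds among them are not marked.

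Of the 8 inhibitors, Cdkn1a, Cdkn2c and Cdkn3 were higher in activated cells, Cdkn1b was lower, and Cdkn2d was abundant in both with a smaller difference. Cdkn1c, Cdkn2a and Cdkn2b lay under 100 on both arrays. Called higher were thus 3 of the 8 genes, against 12.8% of all 18193 genes, or 3 of the 5 measured members against 23.7% of the 9842 genes with at least 1 intensity of 100. One member was called lower, against 11.1% of all genes and 20.6% of measured genes. Counts this small, over members that reached 100 in part because activated cells had more signal, describe these arrays and are no result about the family as a whole. The median log2 ratio of the 5 measured members was 1.27, the value of Cdkn2c, beside 0.01 for all measured genes. Cdkn1a and Cdkn3 entered this median only through their activated values, so it is no result about the family either.

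**Figure D1:**
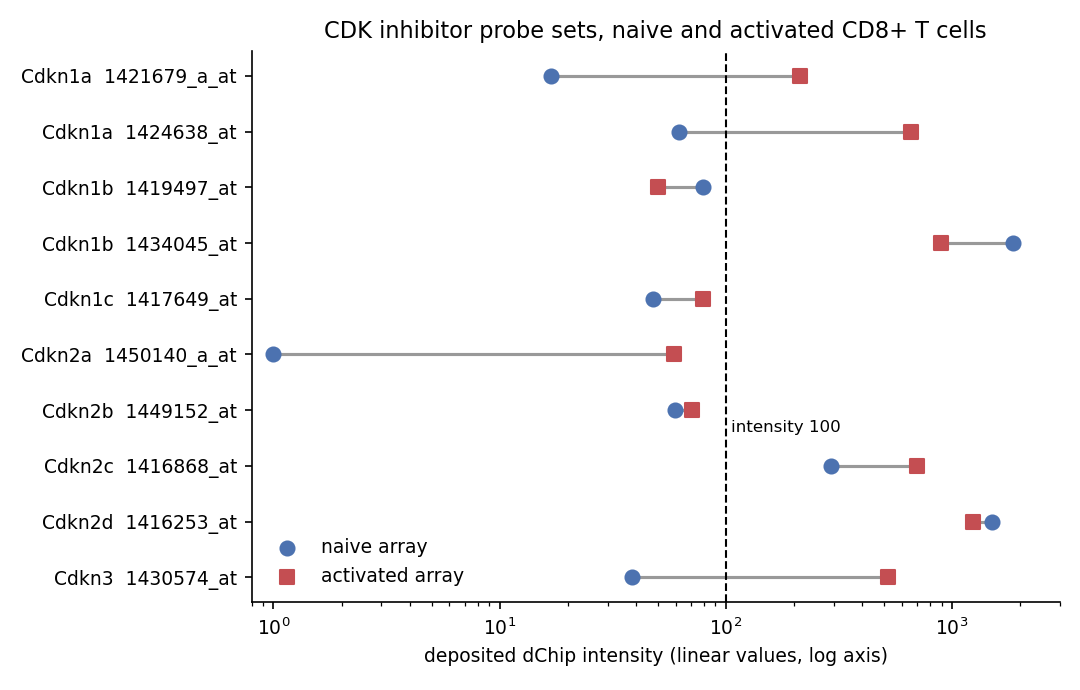
Deposited intensity (log axis) of each of the 10 probe sets on the naive array (circles) and the activated array (squares), with a dashed line at 100. Both Cdkn1a probe sets and Cdkn3 cross the line from left to right, Cdkn1b moves from 1866 to 893 on its brighter probe set, and 4 probe sets stay left of the line on both arrays.

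Cdkn1a and Cdkn1b, both of the Cip/Kip family, differed in opposite directions. Cdkn1a encodes p21, a target of the p53 tumour suppressor that also binds the replication clamp PCNA. Its brighter probe set, 1424638_at, gave 62.4 in naive and 660.0 in activated cells. The fold was at least 6.60 and the log2 ratio at least 2.72. The other probe set, 1421679_a_at, was at 17.0 and 213, at least 2.13-fold higher. Both probe sets of Cdkn1a were therefore under 100 in naive cells and above it in activated cells. Since neither naive value was measured above 100, the size of the difference is known only from below.

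Cdkn1b encodes p27, the inhibitor best known for holding T cells in quiescence. Probe set 1434045_at gave 1866 in naive cells against 893 in activated ones, 2.09-fold lower (log2 ratio -1.06), so that 47.8% of the naive signal was left. A lower ratio was found for 795 of the 9842 measured genes. The other probe set, 1419497_at, was at 79.2 and 50.1 and gave no ratio. The difference in Cdkn1b therefore rests on 1 probe set, and the transcript was still well above 100 in proliferating cells. The third Cip/Kip gene, Cdkn1c, encodes p57, an imprinted inhibitor. It was at 47.8 and 79.6, below the level at which a difference could be read.

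To show the start-site sequence of the genes with the highest ratios and of the lower one, 1 promoter window each is printed for Cdkn1a, Cdkn1b and Cdkn3 (RefSeq, GRCm38.p6, + strand for all 3, 5′ to 3′). A window runs from 250 bases before to 50 bases after a gene's start. Capitals mark a p53 response element in Cdkn1a and the reverse of a cell cycle homology region (CHR, letters TTTGAA) in Cdkn3, and Cdkn1b held no match.
Cdkn1a, chr17:29090729-29091028: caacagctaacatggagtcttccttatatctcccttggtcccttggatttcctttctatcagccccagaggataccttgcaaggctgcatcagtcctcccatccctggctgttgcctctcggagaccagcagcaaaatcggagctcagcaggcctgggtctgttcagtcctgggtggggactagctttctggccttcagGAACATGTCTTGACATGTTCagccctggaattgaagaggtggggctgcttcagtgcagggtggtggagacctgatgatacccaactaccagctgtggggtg
Cdkn1b, chr6:134920151-134920450: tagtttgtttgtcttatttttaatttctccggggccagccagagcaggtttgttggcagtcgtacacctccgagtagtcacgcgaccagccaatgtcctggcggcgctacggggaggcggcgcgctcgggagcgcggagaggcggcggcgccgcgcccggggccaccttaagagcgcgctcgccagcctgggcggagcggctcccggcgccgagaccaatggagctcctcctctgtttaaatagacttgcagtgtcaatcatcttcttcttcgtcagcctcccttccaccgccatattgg
Cdkn3, chr14:46760291-46760590: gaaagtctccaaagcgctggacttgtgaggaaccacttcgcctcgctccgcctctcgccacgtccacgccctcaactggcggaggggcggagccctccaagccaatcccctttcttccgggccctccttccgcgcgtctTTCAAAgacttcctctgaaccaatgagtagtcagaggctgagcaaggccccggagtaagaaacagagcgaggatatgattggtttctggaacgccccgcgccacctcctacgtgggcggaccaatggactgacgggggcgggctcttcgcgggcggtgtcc

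The Cdkn1a window is that of the upstream of 2 listed starts, and the window of the other start held no match to any motif searched. Its 20 letters in capitals begin 51 bases before that start and match the p53 element, named here without its letters, with at most 1 mismatch. Such a match was found in 0.0883% of the 32851 promoter windows of the table. This element was searched for after the windows had been read. In Cdkn3 the CHR letters begin 111 bases before the start, and 17.9% of all windows hold them on either strand. Of the 10 member windows, 1 other, that of Cdkn2b, held a CHR match, and 1, the upstream start of Cdkn2a, an E2F match (TTTNNCGC with C or G at each N, present in 2.26% of windows). The FOXO letters GTAAACA, in 3.65% of windows, were in none of the 10. None of these matches overlapped another. A match describes letters only, and says nothing of binding.

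The INK4 genes split into a measured pair and a pair near background. Cdkn2c encodes p18, an inhibitor of CDK4 and CDK6 that limits T cell proliferation. Its intensity was 292 in the naive pool against 703 in the activated pool, 2.41-fold higher (log2 ratio 1.27), and 781 measured genes had a higher ratio. It was the only inhibitor called higher whose naive intensity was itself above 100, so its fold is an estimate and not a bound. Cdkn2d, which encodes p19Ink4d, was at 1498 and 1236, 1.21-fold lower (log2 ratio -0.28). That did not reach 1.4, and it lay inside the range from -0.42 to 0.20 spanned by the log2 ratios of 18 spike-in control probe sets. Cdkn2d was thus measured well on both arrays, and its difference was no larger than that seen in controls.

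Cdkn2a and Cdkn2b lie next to each other in the genome and are known for their induction in senescent cells. The naive value of Cdkn2a was 1, the lowest deposited on these arrays, and the activated value 59.2. Its single probe set cannot tell the transcript of p16Ink4a from that of p19Arf, a different protein read from another frame of the same gene, since the annotation gives only the gene. Cdkn2b, encoding p15, was at 59.8 and 70.8. Values under 100 have no order here, so neither gene can be said to differ or to be absent.

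Cdkn3 gave 38.3 in naive cells against 520.2 in activated ones, at least 5.20-fold higher (log2 ratio of at least 2.38). The value rests on 1 probe set, and, like Cdkn1a, Cdkn3 was under 100 in naive cells.

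**Figure D2:**
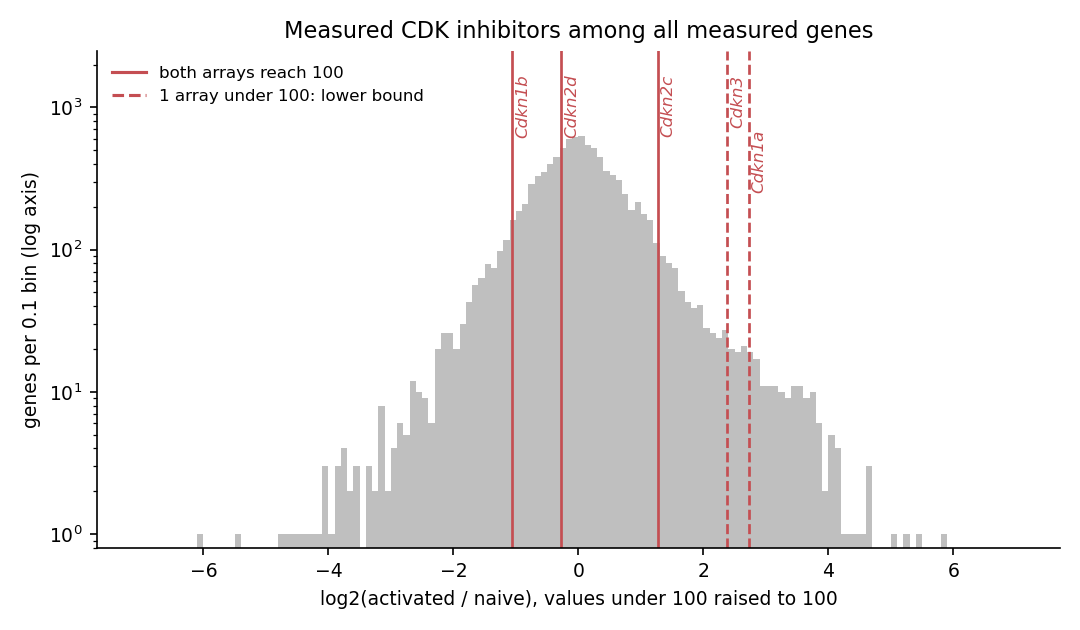
Number of genes per bin of 0.1 (log axis) against the log2 ratio of activated over naive, for the 9842 measured genes, with lines at the 5 measured inhibitors (dashed where 1 array lay under 100, so that the line is a lower bound). Cdkn1a (2.72) and Cdkn3 (2.38) stand in the right tail, Cdkn2c (1.27) to the right of the bulk, Cdkn2d (-0.28) near the centre and Cdkn1b (-1.06) on the left.

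Checks within the arrays give a scale for these ratios. Over 3404 genes with more than 1 probe set above 100 on both arrays, the standard deviation of the log2 ratio within a gene was 0.39, and that of the 18 spike-in probe sets was 0.19. Neither is a replicate error of the cells. The log2 ratios of Cdkn1a, Cdkn1b, Cdkn2c and Cdkn3 were larger in size than both. Any gene called higher or lower had to exceed both, because of the fold that a call requires, so this is no separate check. The value of 0.39 also leaves out probe sets such as those of Cdkn1a and Cdkn3, which were under 100 in naive cells. The probe sets of Cdkn1a gave log2 ratios of at least 1.09 and at least 2.72. As a measure of RNA integrity, the signal of 3′ over 5′ control probe sets was 1.20 in naive and 1.11 in activated cells for Actb, and for Gapdh 0.851 and 0.859. Markers of the labelled cell type were abundant on both arrays. Of 9 measured, 4 were nevertheless called lower in activated cells and 0 higher, beside 20.6% and 23.7% of all measured genes. Cd8a was at 6020 and 4860.0, and its 5 probe sets gave log2 ratios from -1.39 to -0.31. Cd8b1, at 7725 and 3554, was called lower, and Cd3e was at 3035 and 2724.

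Markers listed for other cell types differed between the arrays as well. The 42 analysed markers came from 7 lists (B cells, myeloid cells, dendritic cells, erythroid cells, CD4 and regulatory T cells, NK cells and platelets). Of these, 22 were measured, 11 were lower in activated cells and 0 were higher. Over all measured genes 20.6% were lower and 23.7% higher. The summed intensity of the 42 markers was 23737 on the naive and 10658 on the activated array. Nkg7, of the NK list, gave 3952 and 4060 of these sums. No marker was checked for absence from CD8 T cells, so the sums are no measure of other cells. Much of the difference between the sums came from the beta-globin gene Hbb-b2, at 6852 and 1. Its other probe set gave a log2 ratio of -0.18, which may be a bound. The class II gene H2-Aa was at 2007 and 83.0, with probe sets between -4.33 and -0.03. The B cell gene Ighm was at 4990 and 2968 by its brightest probe set (log2 ratio -0.75), and its 7 measured probe sets reached -4.71, while Cd79b was at 293 and 40.0. No marker had an intensity of 0, and 0 naive and 3 activated markers had the lowest value of 1. Their part in the lower value of Cdkn1b was not tested. In pools of this kind, fewer cells of a type and less RNA per cell cannot be told apart.

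The kinases that the inhibitors bind were all higher in activated cells, 4 of 4, with a median log2 ratio of 1.70. Over all measured genes 23.7% were higher. Cdk1, the mitotic kinase, was at 202 and 4341 (21.4-fold higher). Cdk6 and Cdk4, the targets of the INK4 proteins, were at 619 and 2384 (3.85-fold) and at 1309 and 2988 (2.28-fold). The probe sets of Cdk6 gave log2 ratios from 0.57 to 1.95. Cdk2, a target of p21 and p27, was at 367 and 1007 (2.74-fold). Set beside them, Cdkn2c had a fold of 2.41 in the direction of its targets, whereas Cdkn1b went the other way from Cdk2.

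Cyclins divided by class. Called higher were 4 of 7 measured cyclins, beside 23.7% of all measured genes, and 0 were lower, beside 20.6%. Ccne1 and Ccne2, the E-type partners of CDK2, were 5.02-fold and at least 12.3-fold higher. Ccna2 and Ccnb2, which act from S phase to mitosis, were 12.1-fold and 12.6-fold higher. None of the D-type cyclins that INK4 proteins compete with was called, and Ccnd1, at 107 and 71.7, gives no size since its activated value lay under 100. Of those above 100 on both arrays, Ccnd2 was nearest to no difference, with a log2 ratio of 0.18 and its 7 probe sets between -0.14 and 0.61. One of 3 probe sets of Ccnd3 gave a log2 ratio of -2.70, against 0.26 for the brightest. Ccnb1 was not analysed here.

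Enzymes that set the phosphate state of the kinases, the step at which Cdkn3 acts, were higher for 8 of 9 genes and lower for 0. Their median log2 ratio was 1.11, and of all measured genes 23.7% were higher and 20.6% lower. Wee1 and Pkmyt1 were at least 6.52-fold and 1.84-fold higher, though another probe set of Wee1 gave a log2 ratio of 1.05. The products of both add inhibitory phosphates. The Cdc25 phosphatases that remove them were higher too, at 3.33-fold for Cdc25a, 4.06-fold for Cdc25b and at least 2.98-fold for Cdc25c. Of the kinase that adds the activating phosphate, Ccnh was 2.09-fold, Mnat1 2.15-fold and Cdk7 1.45-fold higher, but another probe set of Cdk7 had a log2 ratio of -0.23 and its call was lost with quantile and loess scaling and with the median over probe sets. Brakes and accelerators of the kinases were thus higher together. Ppm1b, a phosphatase, was at 994 and 1003.

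Among 14 genes linked to the turnover of p27, p21 and p57, 8 were higher and 1 was lower. The shares over all measured genes were 23.7% and 20.6%. The list was not sorted by whether a product removes or spares an inhibitor. Skp2 and Cks1b, which mark phosphorylated p27 for the proteasome, were at 93.3 and 395.5 (at least 3.96-fold higher) and at 743 and 4708 (6.34-fold higher). The lowest log2 ratio over the probe sets of Skp2 was 0.55. Dtl, the receptor that directs p21 to destruction on PCNA, was at least 9.20-fold higher, although the lowest log2 ratio of its probe sets was 0.82, and Pcna was 3.18-fold higher. Its ligase partners Ddb1 and Cul4b were 1.51-fold and 1.41-fold higher, and the call of Cul4b was lost with quantile and loess scaling. The activators of the anaphase-promoting complex, Cdc20 and Fzr1, were 9.75-fold and 2.59-fold higher, and 1 probe set of Cdc20 gave a log2 ratio of 0.11. Rnf123, whose product removes p27 in the cytoplasm of cells leaving quiescence, was at 580.4 and 235 (2.47-fold lower) and was the only lower gene of the list. Rbx1, at 101 and 44.5, gives no size since its activated value lay under 100. Of genes above 100 on both arrays, Skp1a was nearest to no difference, at 2878 and 3118, with -0.31 on its other probe set.

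Of 13 measured genes for transcription factors and cofactors known to activate the family, 0 were higher and 5 were lower. Their median log2 ratio was -0.22, and of all measured genes 23.7% were higher and 20.6% lower. Foxo1, an activator of Cdkn1b, was at 2987 and 983 (3.04-fold lower), while Foxo3, at 645 and 478, did not pass. Klf2, a quiescence factor of T cells, was 2.68-fold lower. Smad3 and Smad4, which carry the signal of TGF-beta to Cdkn1a and Cdkn2b, were 5.79-fold and 2.90-fold lower, and another probe set of Smad3 gave a log2 ratio of -0.62. Dmtf1, an activator of the Arf transcript, was 2.14-fold lower. Tob1 (709.5 and 725) and Smad2 (561 and 584) lay nearest to no difference. Trp53 was not analysed here.

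Known repressors of the family went both ways. Of 12 measured genes, 4 were higher, beside 23.7% of all measured genes, and 2 were lower, beside 20.6%. Counts so small are no result about the repressors as a group. Ezh2, the Polycomb methyltransferase that silences the Cdkn2a locus, was at 516 and 3050.0 (5.91-fold higher). Gfi1 was 2.68-fold and Myc, a repressor of Cdkn1a and Cdkn2b, 2.06-fold higher. Cbx7, another Polycomb gene acting on Cdkn2a, was at 659 and 151 (4.36-fold lower), with -0.10 on its other measured probe set. Id2 was 1.68-fold lower. Bmi1 (997 and 1138) and Tfap4 (406 and 407) lay nearest to no difference.

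Genes of the p53 response other than Cdkn1a went both ways. Of 18 measured genes, 8 were higher, beside 23.7% of all measured genes, and 6 lower, beside 20.6%, and their median log2 ratio was 0.50. With a fold minimum of 2 the counts were 3 and 5, beside 1193 higher and 904 lower of all 9842 measured genes. The largest differences upward were in Perp, at 69.7 and 317 (at least 3.17-fold), and Phlda3, at 54.3 and 268 (at least 2.68-fold). Downward they were in Rrm2b, at 551 and 174 (3.17-fold), the antiproliferative gene Btg2, at 2685 and 948 (2.83-fold), and the death receptor gene Fas, at 338 and 126 (2.67-fold). The probe sets of Rrm2b gave log2 ratios from -1.67 to -0.78. Mdm2, which encodes the ligase of p53 and is its target, was at 864 and 743, and Bbc3 at 185 and 168, neither of them past the size rule. The other measured probe set of Mdm2 gave a log2 ratio of 0.39, opposite in sign to the -0.22 of the brightest. Bax was not analysed here.

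Downstream of the kinases, 5 of 13 pocket protein and E2F genes were higher and 1 was lower. The shares over all measured genes were 23.7% and 20.6%. With the median over a gene's probe sets 7 were higher, beside 2213 of all 9848 genes measured in that setting. E2f2 was 7.22-fold, Tfdp1, the dimer partner of E2F factors, 5.35-fold, E2f8 at least 5.34-fold, E2f3 3.55-fold and E2f7 at least 2.66-fold higher. The lower gene, Rbl2, encodes the pocket protein p130 of resting cells and was at 1693 and 820 (2.07-fold lower). It is named here after its value was seen. By their brightest probe sets E2f5 (510 and 542) and Tfdp2 (351 and 377) lay nearest to no difference, although another probe set of Tfdp2 gave a log2 ratio of 1.55.

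**Figure D3:**
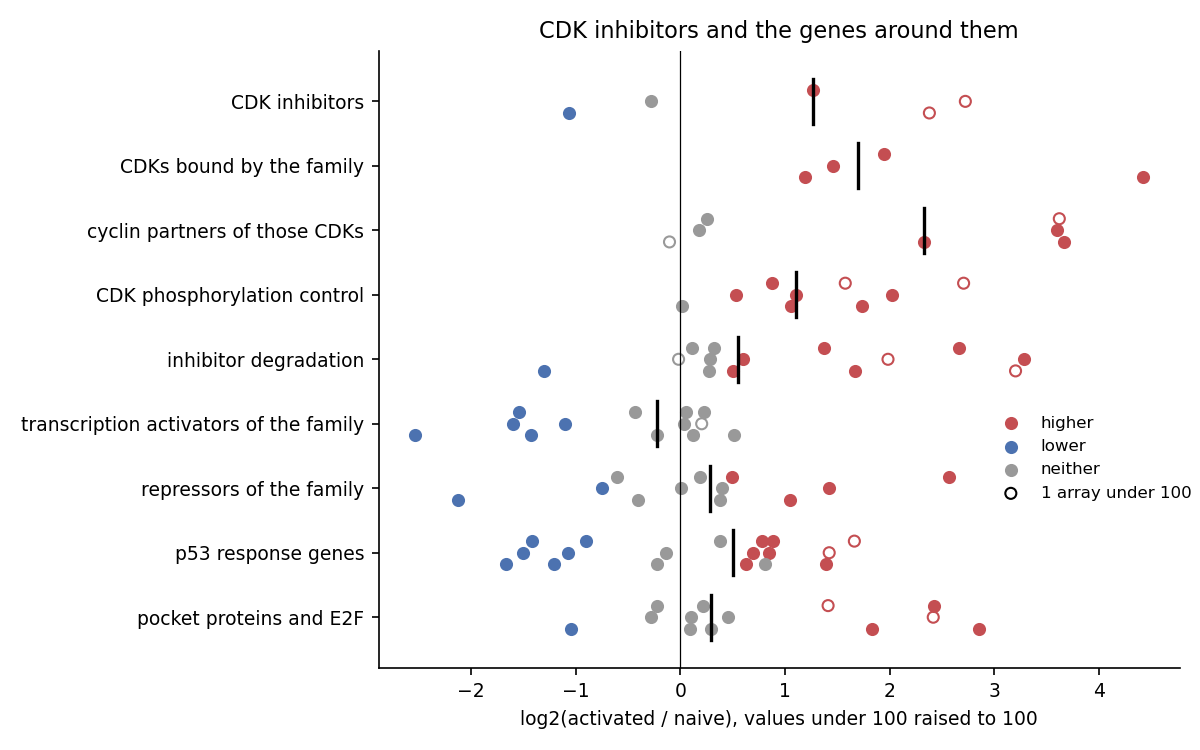
Log2 ratio of activated over naive for each measured gene (points) of the inhibitors and of 8 lists around them, coloured by call, open where 1 array lay under 100, with a bar at each list's median. The kinases and their phosphorylation enzymes lie at or right of 0, the activators of the family have points to the left only among those called, and the inhibitors and the p53 response genes lie on both sides.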

How the data were processed

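The authors deposited 1 intensity per probe set and array, on a linear scale, which they computed with the perfect-match minus mismatch model of dChip and normalised by its invariant set method, per the series' design text. GCOS 1.3 made the study's present calls, per the submitters' processing notes and design text. Calls and confidence bounds, which the study's own rule includes, were not used here, and no source used here gives the version of dChip. Pooling came before hybridisation, per the labels' protocols, and having 2 arrays limits the precision of all values.

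From the deposited intensities, 64 control probe sets were left out, symbols were taken from the platform annotation (34945 probe sets with 1 symbol, 932 with several, 9160 unnamed here), and ratios were formed in Python 3.11.15 with pandas 2.3.3 as described above. Entrez identifiers of all 10 member probe sets matched the RefSeq table. Probe sets shared by several genes named no gene, and 0 of them named a member. Promoter windows came from the RefSeq table of GRCm38.p6 and covered 7 of the 8 genes.

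Members and lists were chosen with earlier results of these data known. All member probe sets are named, with every gene past the size rule and the nearest to no difference in the 4 lists on kinases, cyclins, phosphorylation and degradation. Elsewhere up to 5 genes past the rule and 2 nearest to 0 are named, and of markers Cd8a, Cd8b1, Cd3e and up to 2 per list. Foxo3, Ccnd2, Ccnd3, Skp1a and Rbl2 were named after their values were seen. The 9 alternatives changed the scaling (median, quantile or loess, statsmodels 0.14.6), took the median over a gene's probe sets, set the floor to 50 or 200, set the least difference to 50 or 200, or asked for a fold of 2.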

Additional observations from a re-analysis of the deposited data

How the results depend on the processing

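Under all 9 alternatives Cdkn1a, Cdkn2c and Cdkn3 were called higher, Cdkn1b lower and Cdkn2d neither, so the counts of 3 and 1 stood. Log2 ratios ranged from -1.12 to -1.06 for Cdkn1b, from 1.20 to 1.27 for Cdkn2c and from -0.33 to -0.28 for Cdkn2d. The log2 ratios of Cdkn1a and Cdkn3 moved with the floor by construction. With a floor of 50 that of Cdkn1a was 3.40, no longer a bound since its naive 62.4 lay above 50. That of Cdkn3 was at least 3.38. With a floor of 200 the bounds were 1.72 for Cdkn1a and 1.38 for Cdkn3, and the median over both probe sets of Cdkn1a was 1.91. With a fold minimum of 2, the higher p53 response genes fell to 3 of the 8, the lower repressors to 1, the lower CD8 T cell, B cell, myeloid and NK markers to 1 each, and the lower gene among proteins that bind CDKs or ARF to 0. Calls over all 9842 measured genes fell as well at that fold, from 2334 to 1193 higher and from 2027 to 904 lower. Quantile scaling gave 7 lower CD8 T cell markers in place of 4, a floor of 50 gave 2 lower erythroid markers in place of 1, and 1 lower NK marker in place of 2 was left when the floor or the least difference was 200. Among called genes no log2 ratio changed sign, in 36 values for members and 540 for other named genes, while 6 uncalled genes near 0 (E2f5, Mdm2, Ppm1b, Smad2, Tfap4 and Tob1) changed sign under some alternative. Many of these values could not change sign. A new fold or least difference leaves the log2 ratio as it is, and a floor cannot reverse it. Only the scalings and, for genes with several measured probe sets, the median over probe sets could do so. A floor of 200 ended the calls of E2f7, Phlda3 and Klra8. Leaving out an array was not possible with 1 per group. No paired analysis was possible because each group holds 1 pool. Signal near background limits Cdkn1c, Cdkn2a and Cdkn2b, which gave no difference.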

Other observations

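Genes whose products bind the kinases or the Arf protein, chosen after the data were seen, were looked at beside the inhibitors. Of 8 measured genes, 3 were higher and 1 lower, beside 23.7% and 20.6% of all measured genes. Cks2, a small subunit of mitotic kinase complexes, was at 449.9 and 6103 (13.6-fold higher). Cdk2ap1, which encodes a protein that binds CDK2, was at 1449 and 4724 (3.26-fold higher), and its probe sets gave log2 ratios from 1.40 to 1.70. Its relative Cdk2ap2 was at 2025 and 1021 (1.98-fold lower). Npm1, encoding the nucleolar protein that holds Arf, was 1.65-fold higher (log2 ratio 0.72), a call lost with quantile (0.47) and loess scaling (0.45). Cdkn2aip and Cdkn2aipnl, at 373 and 305 and at 1082 and 881, did not pass the size rule.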
